A study of Drosophila melanogaster with 14 samples.

Results

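A group of 66 Drosophila genes known in the deposited table only by a CG number had low read counts in embryos of the first 45 min after egg laying (AEL) and high counts in extracts of embryos of 90 to 180 min AEL. They were selected on these measured values from the 7768 genes with a CG symbol among the 15682 genes of the table of staged embryos. The mean normalized count of the 4 late libraries had to be at least 50 and at least 8 times the early mean plus 1. The same thresholds were passed by 90 genes with another symbol, 156 genes in all. In the Ensembl annotation of BDGP6.54, 14 of the 65 genes that could be placed now carry another name, so that "uncharacterized" holds for the symbol in the file and not for every gene. These include Elba3 (CG15634), a subunit of the ELBA insulator-binding complex, dunk (CG34137), a regulator of cortical myosin in cellularization, and grnd (CG10176), the TNF receptor Grindelwald.

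Total RNA depleted of ribosomal RNA was sequenced, with 2 libraries per group. Nuclear and cytoplasmic extracts were prepared from wt Oregon R embryos of 90 to 180 min AEL ('Late'), and whole wt embryos of 0 to 45 min AEL served as 'Early'. In a separate table, whole embryos of 0 to 180 min AEL came from mothers carrying grp fs1, Slbp 10/12 or Slbp 10/15, crossed to wt males per the study's methods, against wt embryos of the same span. The mutations are thus maternal and the embryos received a wt chromosome from their fathers. grp encodes the checkpoint kinase Chk1, and Slbp the protein that binds the stem-loop of histone mRNAs. Of the 66 genes, 65 had a row in the mutant table, and CG16778 had none.

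The Drosophila egg is laid with a store of maternal RNA, and the first nuclear cycles run almost without transcription. The zygotic genome is switched on in waves around the last syncytial cycles. Short genes with few introns are prominent in the first wave, since the interphases then are too brief to transcribe long ones. The zinc finger factor Zelda opens many of these genes by binding heptamers related to CAGGTA. Zelda sites that the study's motif scan listed are shown for 6 genes of the results below. The scan chose them for this motif, so that the shared letters are no finding. Capitals mark CAGGTA or its reverse complement TACCTG, each site is written 5′ to 3′ as listed, and its orientation to the gene, as well as the share of all promoters with such letters, was not analysed here.
CG14317 (3R), site 1: aCAGGTAact
CG14317 (3R), site 2: tCAGGTAact
CG14317 (3R), site 3: gctTACCTGa
CG14317 (3R), site 4: tacTACCTGa
CG10035 (3R), site 1: gCAGGTAagg
CG10035 (3R), site 2: gCAGGTAgta
CG10035 (3R), site 3: ttcTACCTGa
CG13711 (3L), site 1: aCAGGTAact
CG13711 (3L), site 2: tCAGGTAaac
CG15876 (3L), site 1: aCAGGTAgct
CG15876 (3L), site 2: gCAGGTAggg
CG16815 (2L): ggcTACCTGt
CG14915 (2L): gacTACCTGt
CG14317 and CG10035 had the highest late counts, CG13711, CG15876 and CG16815 stayed near or above their wt count in grp fs1, and CG14915 had one of the largest falls in Slbp 10/12.

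The libraries held 17368684 to 33866670 reads, recovered from the normalized counts. The snRNAs, which act in nuclei, summed to 73732 and 70197 normalized counts in nuclear libraries, against 714919 and 1151180 in cytoplasmic ones. The snRNAs thus go against the names of the extracts. With roX1, roX2 and Hsromega added, the sums were 96351 and 86614 in nuclear libraries, against 728833 and 1.17e+06 in cytoplasmic ones. Most of these sums is snRNA, so that they do not show on which side the added RNAs lay. The 88 ribosomal protein genes, whose mRNAs are cytoplasmic, summed to 1.86e+06 and 2.53e+06 in nuclear libraries, against 7.16e+06 and 1.24e+07 in cytoplasmic ones, which runs as the names say. The extracts are used here as labelled. The targeted genes followed the labels: grp had 2059 and 1718 normalized counts in grp fs1, against 14113 and 13306 in wt, and Slbp had 186 to 262 in the 4 Slbp libraries, against 2776 and 2873 in wt. The 9 muscle markers of older embryos summed to 32.7 and 3800 in grp fs1 embryos, 47.6 and 60.3 in Slbp 10/12 embryos, 117 and 97.0 in Slbp 10/15 embryos, against 22765 and 25663 in wt. wupA was at 0 in grp fs1 replicate 1, Slbp 10/12 replicate 1 and both Slbp 10/15 libraries. The 6 neuron markers summed to 4.67 to 83.4 over the mutant libraries, against 1048 and 1355 in wt, and the 7 cuticle markers to 0.933 to 67.0, against 431 and 837 in wt. Markers of older embryos thus differed between each mutant and wt, and their part in those comparisons was not tested. In the staged table the muscle markers summed to 40825 and 14213 in nuclear, 5553 and 29094 in cytoplasmic and 34944 and 31074 in early libraries. In the same order, the cuticle markers summed to 615 and 270, 67.6 and 275, and 1662 and 1037. The 5 neuron markers found there summed to 2642 and 1854, 343 and 1283, and 941 and 1013. Markers of older embryos were thus present even at 0 to 45 min AEL. The 7 maternal markers summed to 47206 and 62552 in nuclear, 311993 and 136752 in cytoplasmic and 159056 and 164909 in early libraries. The part of these lists in the extract comparison was not tested.

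The 66 genes summed to 153406 and 177751 normalized counts in nuclear, 92617 and 122549 in cytoplasmic and 10143 and 4637 in early libraries. Since these values chose the genes, they are a description with no test, and stage cannot be told apart from fractionation because the early libraries are of whole embryos. The early replicates differed: replicate 1 was higher for 50 of the 52 members with an early mean of at least 5, at a median of 1.36 log2 units, where the median of all genes was 0.02. Late means ran from 50.6 to 17705 normalized counts, with a median of 699. Per kilobase of the table's gene length, the range was 24.7 to 20302 normalized counts over 65 genes, with a median of 620.

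Normalized counts were highest for CG14317, named bard in BDGP6.54, with 20143 and 26239 in nuclear, 10773 and 13666 in cytoplasmic and 938 and 270 in early libraries. CG10035 had 23309 and 22332 in nuclear, 7194 and 10893 in cytoplasmic and 2077 and 1168 in early libraries. CG34214 had 7556 and 9198 in nuclear, 10784 and 15907 in cytoplasmic and 270 and 69.0 in early libraries. All late libraries of these 3 genes lay above the early ones, as the rule required of the means, and CG34214 was the one with both cytoplasmic libraries above both nuclear ones. CG13333, dunk (CG34137), Elba3 (CG15634), CG13427 and CG14915 followed with late means of 8142, 7331, 7060, 5985 and 5187. Per kilobase, late levels were 20302 normalized counts for CG34214, 16408 for CG10035, 13665 for CG13427, 13144 for CG14317 and 10251 for CG14915, so that the shortest of these genes moved up in the order.

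**Figure D1:**
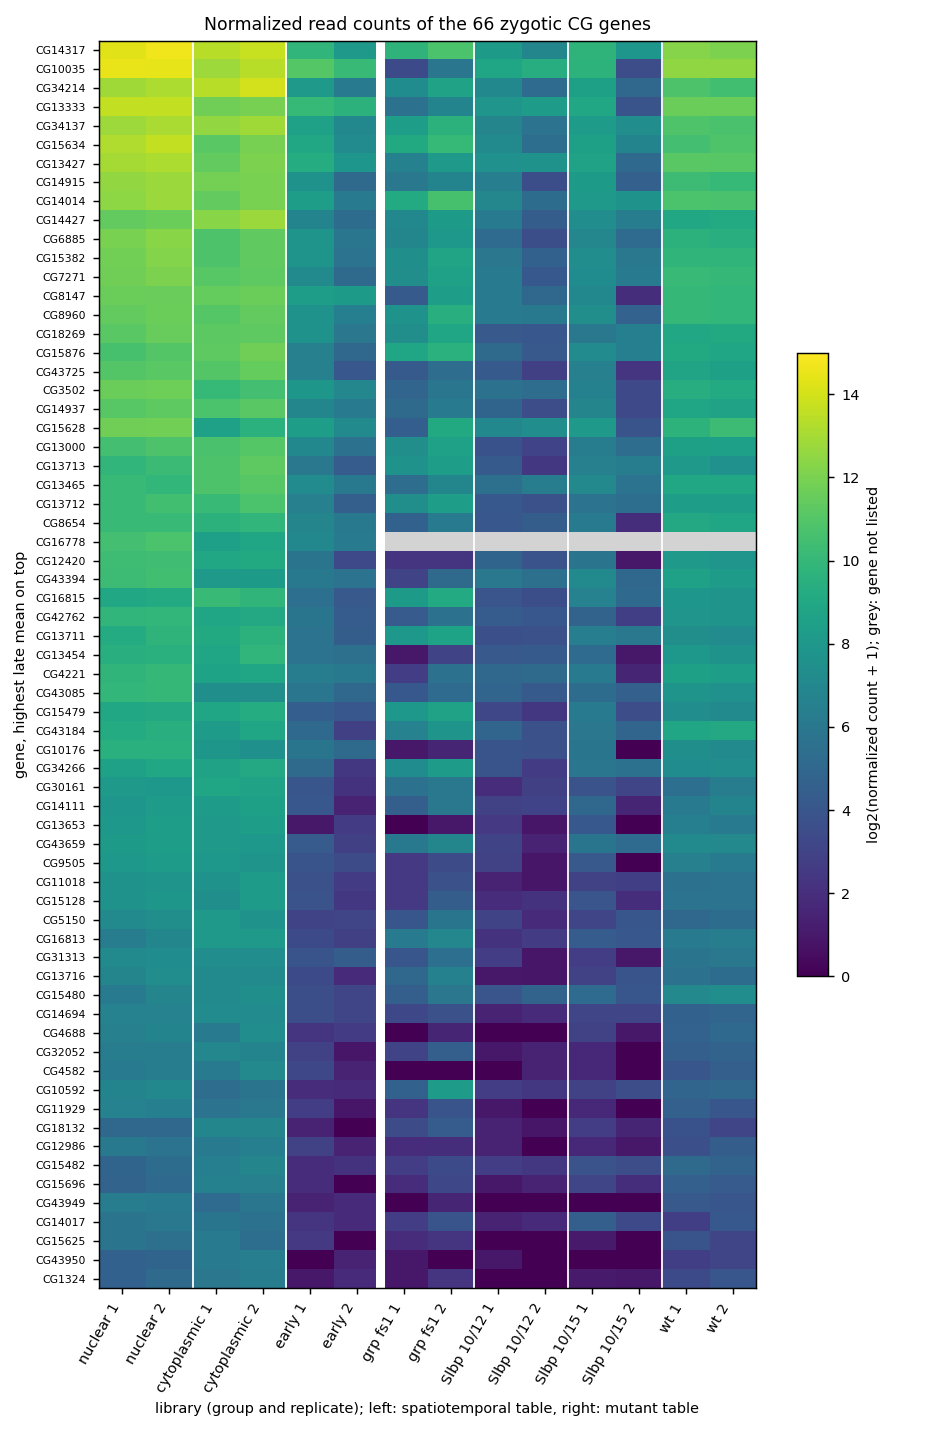
Normalized read counts (color, log2 of the count plus 1) of the 66 genes (rows, highest late mean on top) in each library (columns, named by group and replicate). Late libraries are high and early libraries low because these values chose the genes; grp fs1 replicate 2 and Slbp 10/15 replicate 1 are higher than their partner libraries, with sums over 65 genes of 14943 against 6330 and of 7449 against 1944.

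Near the thresholds, CG1324, CG43950 and CG15625 had late means of 50.6, 50.8 and 53.7 just inside. CG1561, CG9863 and CG7387 had 43.0, 43.0 and 42.1 just outside. For the ratio of the late mean to the early mean plus 1, CG31313, CG15628 and CG13333 had 8.56, 8.79 and 8.81 just inside, and CG7884, CG11423 and CG17122 had 7.78, 7.78 and 7.59 just outside.

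The genes were short and often without introns, 2 properties the selection did not use. Of the 65 genes placed in BDGP6.54, 63 are protein coding, and CG43949 and CG43950 are listed there as the noncoding RNAs CR43949 and CR43950. The median gene length in the mutant table was 1031 bases for the 63 coding genes (range 246 to 4206), against 1975 bases for the 81 coding genes with another symbol past the same thresholds and 2025 bases for the 9575 coding genes tested. Every transcript had a single exon in 33 of the 63 (52.4%), against 29.6% of the 81 and 9.94% of the 9575. The span was under 2000 bases in 81.0%, against 39.5% and 36.0%. Coding sequences had a median of 723 bases, against 1284 and 1380. No test was run on these shares. CG43184 was the shortest of the 63, with 246 bases in the table, a single exon and a coding sequence of 243 bases on chromosome 3L from 13837756 to 13838080. CG43394 was the longest, with 4206 bases and up to 9 exons on 2L from 8145758 to 8158786.

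**Figure D2:**
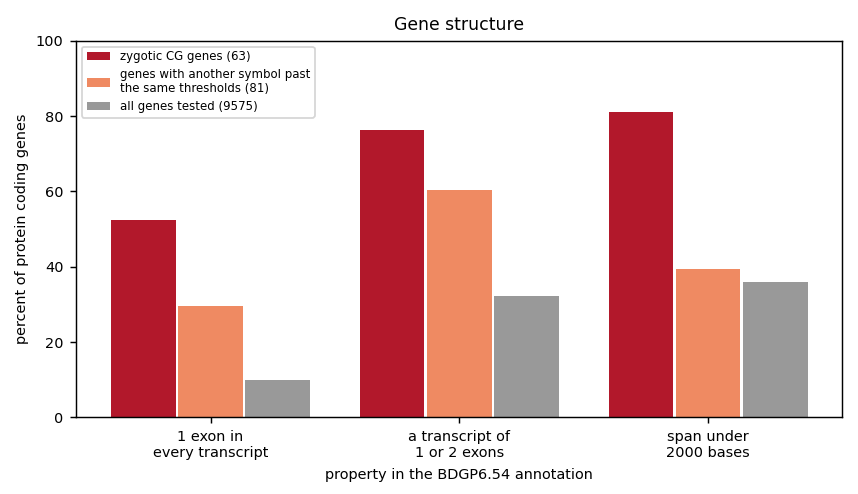
Share of protein coding genes (vertical axis, percent) that have 1 exon in every transcript, a transcript of 1 or 2 exons, or a span under 2000 bases in BDGP6.54. The CG genes stand above the other genes past the same thresholds in each property: 52.4% against 29.6%, 76.2% against 60.5% and 81.0% against 39.5%.

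By chromosome arm, 22 of the 65 lay on 2L (33.8%, against 17.7% of the 9917 tested genes that could be placed), 19 on 3L (29.2%, against 20.2%), 10 on 2R (15.4%, against 19.9%), 10 on 3R (15.4%, against 24.9%), 4 on X (6.15%, against 16.5%) and 0 on chromosome 4 (against 0.847%). With a gap of at most 20000 bases, 24 of the 65 formed 9 runs. The run of 5 on 2L, from 13210773 to 13234660 in BDGP6.54, holds CG15482, CG15480, CG16813, CG16815 and CG15479, the last named Mabi, a regulator of caspase-independent cell death. CG34266, CG15876, CG13713 and CG13712 lie on 3L from 4677832 to 4709890, with CG13716 before and CG13711 after them. All 6 of these are single-exon genes inside introns of axo or RhoGEF64C. In all, 12 of the 65 lie in an intron of another gene and 14 share exonic bases with another gene, among them CG14915 with 87% of its exonic bases under an antisense RNA. Whether the counting used strand is not given in the sources used here, so that reads of host or antisense genes cannot be told apart from reads of these genes.

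The nuclear and cytoplasmic extracts were compared to ask on which side each RNA was more abundant. The selection pooled both extracts, so that a gene could enter through the extract in which it was high. Calls on such genes are a description and no independent support for their side. Of the 66 genes, 12 were higher in nuclear extracts, 4 were higher in cytoplasmic extracts and 50 passed in neither direction, by limma on log2(normalized count + 1) at an adjusted p under 0.05. Of all 10335 genes tested, 26.9% passed on the nuclear side and 28.6% on the cytoplasmic side, so that the shares of the members, 18.2% and 6.06%, were below the background on both sides. The members' median log2 difference was 0.08, against 0.24 for all genes and 0.74 for the 90 genes with another symbol. With upper quartile scaling the median of all genes moved to 0.65 and that of the members to 0.49, so that the members stayed 0.165 below all genes in both. The split of 12 and 4 became 12 and 0 with this scaling. Nothing in the labels or methods ties the replicates to separate collections, so p-values here measure only the spread between these libraries.

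CG15628 had 3384 and 3641 normalized counts in nuclear extracts, against 386 and 773 in cytoplasmic ones (log2 difference 2.68, SE 0.41, adjusted p = 4.29e-05 by limma). CG43085 had 980 and 997 in nuclear, against 174 and 169 in cytoplasmic extracts (2.52, SE 0.43, adjusted p = 0.000124 by limma). The groups of both genes were far apart, and both genes are made of several exons, 5 and 2. CG43394 had 1229 and 1419 in nuclear, against 263 and 288 in cytoplasmic extracts (2.26, SE 0.38, adjusted p = 0.000112 by limma). CG16778 had 1478 and 1693 in nuclear, against 349 and 460 in cytoplasmic extracts (1.98, SE 0.39, adjusted p = 0.000428 by limma). CG13333 had 12444 and 12786 in nuclear, against 3475 and 3864 in cytoplasmic extracts (1.78, SE 0.30, adjusted p = 9.08e-05 by limma). These 5 genes passed in all 12 alternative fits, the 4 without one extract library included.

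Elba3 (CG15634) had 9357 and 12711 in nuclear, against 2253 and 3918 in cytoplasmic extracts (1.88, SE 0.45, adjusted p = 0.00197 by limma). It did not pass without nuclear replicate 1 or without nuclear replicate 2. grnd (CG10176) had 724 and 741 in nuclear, against 249 and 180 in cytoplasmic extracts (1.79, SE 0.43, adjusted p = 0.00212 by limma), and did not pass without nuclear replicate 1. The other 5 genes higher in nuclear extracts were CG3502, CG10035, CG13427, Fbxl7 (CG4221), an F-box protein of growth control, and CG6885, with log2 differences of 1.11 to 1.40. Of the 12 calls, 5 were left without nuclear replicate 1 and 6 without nuclear replicate 2, where 14.8% and 15.5% of all genes passed.

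In cytoplasmic extracts 4 genes were higher, none of them in every fit. CG18132 had 31.5 and 31.6 normalized counts in nuclear, against 116 and 111 in cytoplasmic extracts (log2 difference -1.81, SE 0.68, adjusted p = 0.0316 by limma). CG15482 had 27.7 and 38.9 in nuclear, against 86.9 and 111 in cytoplasmic extracts (-1.55, SE 0.61, adjusted p = 0.0397 by limma). CG16813, its neighbour on 2L, had 82.5 and 117 in nuclear, against 275 and 270 in cytoplasmic extracts (-1.46, SE 0.52, adjusted p = 0.0259 by limma). CG14427, an intronic gene on X, had 2653 and 3192 in nuclear, against 5240 and 6867 in cytoplasmic extracts (-1.04, SE 0.40, adjusted p = 0.0368 by limma). No library of one extract reached into the other in these genes, and the cytoplasmic side is the one on which the snRNAs also lay. None of the 4 calls held in every fit that leaves out an extract library, while no difference changed its sign.

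**Figure D3:**
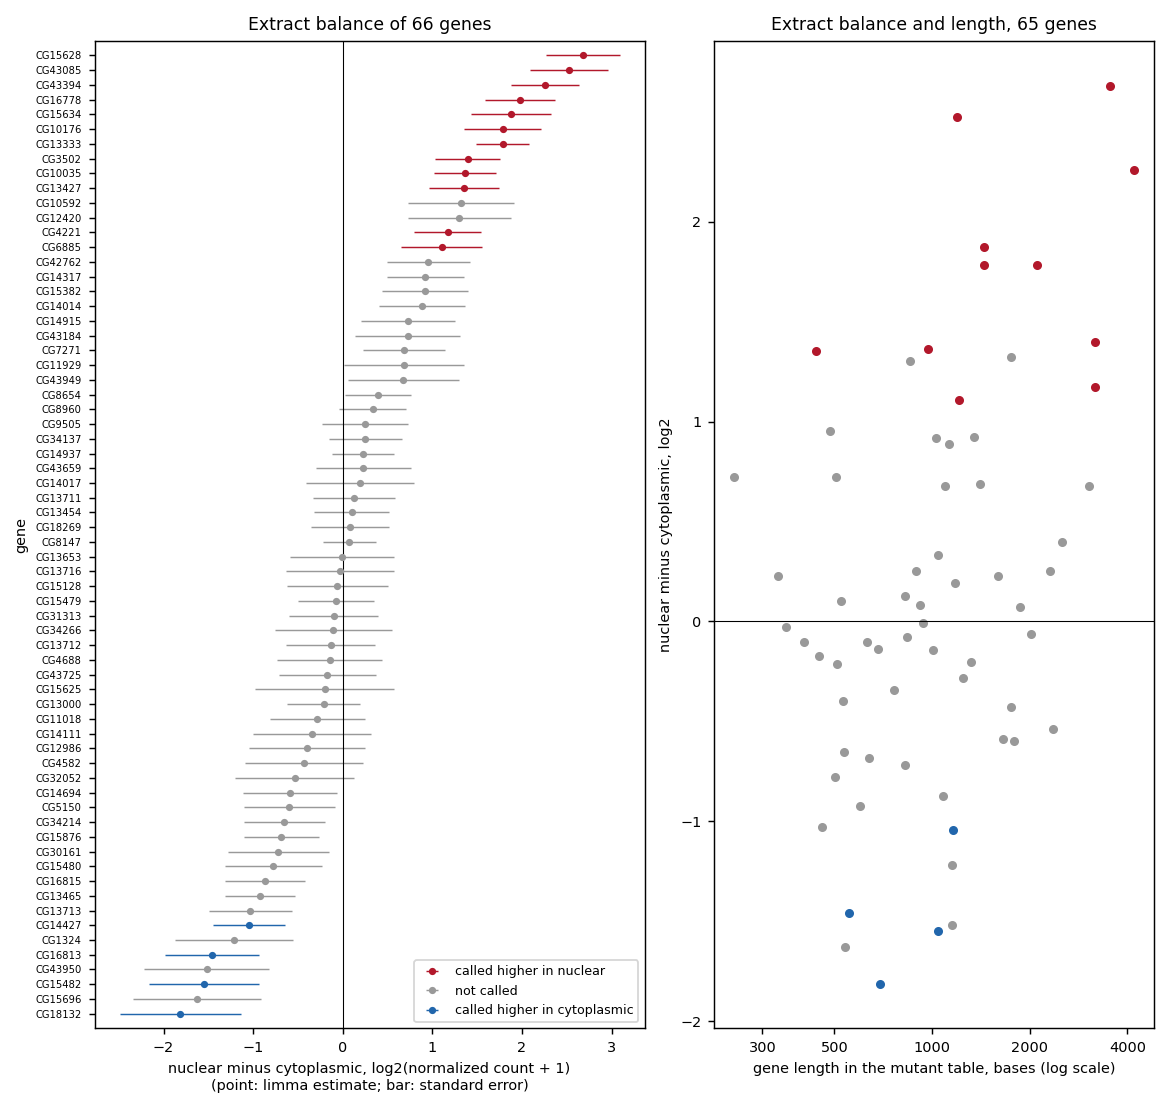
Left, nuclear minus cytoplasmic difference (log2, limma estimate with its standard error) of the 66 genes; right, the same difference against gene length (log axis) for 65 genes. The 12 genes called nuclear reach 2.68, the 4 called cytoplasmic reach -1.81, and the longer genes lie higher, with a Pearson correlation of 0.382 across genes.

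Among the members, longer genes lay more to the nuclear side than shorter ones. The 11 genes called nuclear that have a length had a median of 1450 bases, against 928 for the 50 that passed in neither direction and 866 for the 4 called cytoplasmic. Of the 35 genes of at least 1000 bases, 9 were called nuclear and 2 cytoplasmic, with a median log2 difference of 0.33, and of the 30 shorter genes, 2 and 2, with a median of -0.10. By exons, 4 of 35 single-exon genes and 7 of 30 genes with more exons were called nuclear. Of all 10335 genes tested, 26.9% passed on the nuclear side and 28.6% on the cytoplasmic side, with a median of 0.24. The longer members were thus near the nuclear share of all genes, and the shorter ones below it. No test was run on these shares. Across the 65 genes, log2 length and the log2 difference had a Pearson r of 0.382 and a Spearman rho of 0.337. The log2 late mean and the difference had an r of 0.439 and a rho of 0.455 over 66 genes. The late mean contains the nuclear libraries and all genes share the same 4 libraries, so that these are descriptions over genes that are no independent replicates. The genes called nuclear also had the higher counts, with a median late mean of 2150 against 482 for those not called.

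The mutants were compared with wt to ask how far these genes depend on Chk1 and on the maternal supply of SLBP. By limma 28 of 65 were lower and 1 was higher in grp fs1, where 28.7% of the 9868 genes tested were lower and 14.3% were higher. In Slbp 10/12, 55 were lower and 0 higher, with 33.0% and 15.6% of all genes. In Slbp 10/15, 57 were lower and 0 higher, with 38.9% and 20.1% of all genes. Neither edgeR nor DESeq2 called any member higher in a Slbp mutant, nor did limma at an unadjusted p under 0.05 (0 of 65 in both). The members' median log2 changes were -1.91 for grp fs1, -3.83 for Slbp 10/12 and -2.97 for Slbp 10/15, against -0.10, -0.11 and -0.19 for all genes. The 3 comparisons share the same wt libraries. In whole embryos, fewer cells that express a gene and less RNA per cell cannot be told apart, nor can fewer embryos that reached the late stages.

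With upper quartile scaling, the all-gene median shifted by -0.318 for grp fs1, by -0.389 for Slbp 10/12 and by -0.387 for Slbp 10/15. Relative to all genes, the members' medians were -1.81, -3.72 and -2.78 with the authors' size factors and -1.79, -3.66 and -2.73 with this scaling. The members called lower went from 28 to 36 in grp fs1, from 55 to 62 in Slbp 10/12 and from 57 to 61 in Slbp 10/15. Over all genes, 1407 higher and 2836 lower in grp fs1 became 177 and 3833. For Slbp 10/12, 1539 and 3256 became 171 and 5276, and for Slbp 10/15, 1979 and 3837 became 233 and 5319. Over all genes, edgeR gave 1993 higher and 1846 lower for grp fs1, 2267 higher and 2583 lower for Slbp 10/12, and 2445 higher and 2951 lower for Slbp 10/15. Of the members it called 21, 58 and 45 lower, with 18.7%, 26.2% and 29.9% of all genes. DESeq2 called 25, 56 and 40 members lower, with 16.2%, 21.9% and 25.9% of all genes. With only the groups compared, 46 members were lower in Slbp 10/15, with 39.4% of all genes.

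By the 4-fold rule on group means, 29 of 65 genes were at least 4-fold lower in grp fs1. In Slbp 10/12 all 65 were, and in Slbp 10/15 51 were. The rule took in genes whose wt mean was 5 or more, and of these 9672 genes 24.0%, 28.0% and 27.3% passed it. The rule has no test, and low genes pass it on few reads: 40 of the 65 had a mean of at least 5 in Slbp 10/12. When the wt mean had to be 50 or more, 48 members were left, of which 22 passed for grp fs1, all 48 for Slbp 10/12 and 41 for Slbp 10/15. The shares of all genes at this minimum are not given here, and the shares above are no background for these counts.

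**Figure D4:**
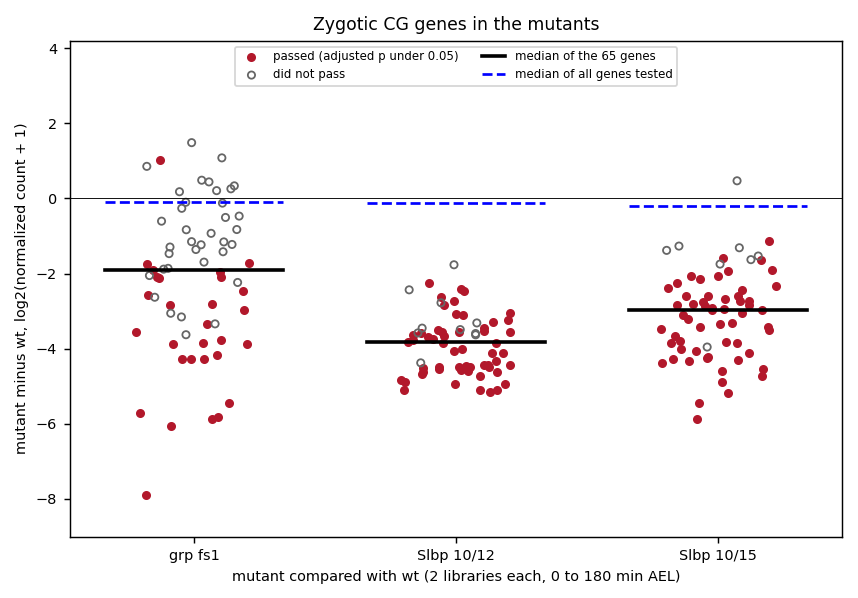
Mutant minus wt difference (log2 of the normalized count plus 1) of 65 genes in each mutant; filled points passed limma, black bars are the medians of the 65 genes and dashed bars those of all genes tested. The medians of the 65 genes are -1.91 for grp fs1, -3.83 for Slbp 10/12 and -2.97 for Slbp 10/15, and grp fs1 has the widest spread, from -7.90 to 1.49.

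In grp fs1 the genes spread from near loss to above wt. CG10035 had 9.33 and 57.4 normalized counts in grp fs1, against 5825 and 5884 in wt (log2 change -7.90, SE 1.75, adjusted p = 0.012 by limma). grnd (CG10176) had 0.933 and 1.88 in grp fs1, against 177 and 137 in wt (-6.05, SE 1.60, adjusted p = 0.0219 by limma). CG13653 had 0 and 0.942 in grp fs1, against 88.4 and 74.2 in wt (-5.88, SE 1.27, adjusted p = 0.011 by limma). In each of the 3 genes both grp fs1 libraries lay far below wt. CG13454 had 0.933 and 7.53 in grp fs1, against 251 and 205 in wt (-5.81, SE 1.31, adjusted p = 0.0128 by limma). CG12420 had 3.73 and 3.77 in grp fs1, against 266 and 229 in wt (-5.71, SE 1.34, adjusted p = 0.0146 by limma). CG13333 had 46.7 and 110 in grp fs1, against 3152 and 3132 in wt (-5.43, SE 1.38, adjusted p = 0.0194 by limma). CG4582 was listed at 0 in both grp fs1 libraries, against 15.1 and 21.8 in wt, at least 13.1-fold lower at a floor of 3 reads over the group.

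CG13711 was the one member called higher in grp fs1, with 255 and 420 normalized counts, against 168 and 153 in wt (log2 change 1.03, SE 0.33, adjusted p = 0.0401 by limma). It passed in 1 of the 4 fits that leave out a library, not without grp fs1 replicate 2, wt replicate 1 or wt replicate 2. It also did not pass with upper quartile scaling, though its direction held. In all, 10 of 65 genes had a positive log2 change in grp fs1, against 4084 of the 9868 genes tested. grp fs1 replicate 2 was higher than replicate 1 for all 54 members with a grp fs1 mean of at least 5, with a median of -1.22 for the log2 ratio of replicate 1 to replicate 2, where the median of all genes was 0.01. The muscle markers were also higher in that library, 3800 against 32.7, and their part in this was not tested. The count of 28 lower genes became 3 without wt replicate 1, 2 without wt replicate 2, 7 without grp fs1 replicate 1 and 28 without grp fs1 replicate 2, where 12.7%, 11.3%, 17.5% and 31.8% of all genes were lower. CG43949, with 0 and 1.88 in grp fs1 against 17.5 and 15.3 in wt, passed in each of these 4 fits.

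In Slbp 10/12 all 65 genes had a negative log2 change, as did 5818 of the 9868 genes tested. CG14915 had 83.3 and 11.4 normalized counts in Slbp 10/12, against 1252 and 1042 in wt (log2 change -5.15, SE 1.23, adjusted p = 0.0128 by limma). CG43725, the next member on 2L, had 18.3 and 6.12 in Slbp 10/12, against 441 and 368 in wt (-5.11, SE 1.26, adjusted p = 0.0144 by limma). CG6885 had 36.6 and 11.4 in Slbp 10/12, against 782 and 693 in wt (-5.10, SE 0.70, adjusted p = 0.00206 by limma). In each, the higher Slbp 10/12 library was still far under wt. CG13000 had 12.8 and 6.99 in Slbp 10/12, against 370 and 346 in wt (-5.09, SE 0.51, adjusted p = 0.000781 by limma). CG18269 had 17.4 and 15.7 in Slbp 10/12, against 512 and 560 in wt (-4.93, SE 0.46, adjusted p = 0.000675 by limma). GstE14 (CG4688), a glutathione S-transferase of ecdysteroid synthesis, was listed at 0 in both Slbp 10/12 libraries, against 25.6 and 33.8 in wt, at least 22.1-fold lower. With the 4 genes at 0 in both libraries set to such bounds, the median of the 65 genes was -3.78.

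CG10035 had 448 and 638 in Slbp 10/12, against 5825 and 5884 in wt, and did not pass (log2 change -3.45, SE 1.75, adjusted p = 0.14 by limma). All groups share 1 variance per gene, and this gene's Slbp 10/15 libraries differed widely, 838 and 10.9. With only the Slbp 10/12 and wt libraries in the fit, 64 of 65 genes were lower, with 36.0% of the 9770 genes tested. The count of 55 became 30 without wt replicate 1, 28 without wt replicate 2, 42 without Slbp 10/12 replicate 1 and 39 without replicate 2, where 15.9%, 16.5%, 20.6% and 22.7% of all genes were lower. The same 27 genes passed in each of these 4 fits, CG14317, CG14014, CG13711 and CG15876 among them.

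In Slbp 10/15 the replicates differed most. Replicate 1 was higher than replicate 2 for 49 of the 54 members with a mean of at least 5, at a median of 1.43 log2 units, where the median of all genes was -0.02. CG10035 had 838 and 10.9 normalized counts in Slbp 10/15, against 5825 and 5884 in wt (log2 change -5.87, SE 1.75, adjusted p = 0.0236 by limma). CG8147, named phu, had 128 and 2.97 in Slbp 10/15, against 999 and 973 in wt (-5.44, SE 1.76, adjusted p = 0.0315 by limma). CG13333 had 505 and 13.9 in Slbp 10/15, against 3152 and 3132 in wt (-5.18, SE 1.38, adjusted p = 0.016 by limma). The size of these falls rests largely on replicate 2, though replicate 1 was below wt too. CG8654 had 70.3 and 2.97 in Slbp 10/15, against 533 and 455 in wt (-4.87, SE 1.20, adjusted p = 0.0119 by limma). CG13454 had 36.2 and 0.990 in Slbp 10/15, against 251 and 205 in wt (-4.73, SE 1.31, adjusted p = 0.0183 by limma). CG12420 had 52.7 and 0.990 in Slbp 10/15, against 266 and 229 in wt (-4.58, SE 1.34, adjusted p = 0.0219 by limma).

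Other genes were alike in both Slbp 10/15 libraries. CG13712 had 50.5 and 41.6 in Slbp 10/15, against 332 and 334 in wt (log2 change -2.83, SE 0.36, adjusted p = 0.00135 by limma). CG18269 had 63.7 and 88.1 in Slbp 10/15, against 512 and 560 in wt (-2.82, SE 0.46, adjusted p = 0.00281 by limma). Both passed in each of the 4 fits that leave out a library, as did 8 further genes. The count of 57 became 15 without wt replicate 1, 12 without wt replicate 2, 55 without Slbp 10/15 replicate 1 and 29 without replicate 2, where 20.2%, 20.9%, 31.8% and 25.8% of all genes were lower.

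CG15628 passed in none of the mutants by limma. It had 21.5 and 563 in grp fs1 embryos, 129 and 163 in Slbp 10/12 embryos, 280 and 13.9 in Slbp 10/15 embryos, against 818 and 1224 in wt, so that no mutant library reached the wt range. Alp10 (CG10592), an alkaline phosphatase, had 24.3 and 315 in grp fs1 embryos, 5.49 and 4.37 in Slbp 10/12 embryos, 6.59 and 10.9 in Slbp 10/15 embryos, against 29.1 and 32.7 in wt. Its grp fs1 mean was 5.48 times that of wt, and this came from replicate 2 alone. CG14017 had 5.60 and 14.1 in grp fs1 embryos, 1.83 and 2.62 in Slbp 10/12 embryos, 22.0 and 8.91 in Slbp 10/15 embryos, against 5.82 and 16.4 in wt. These libraries overlapped in grp fs1 and Slbp 10/15.

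Set directly against the mean of the Slbp mutants, grp fs1 kept more of most of these RNAs. The log2 difference was positive for 52 genes and negative for 13, against 5338 and 4434 of all 9868 genes. Among the negative ones was CG10035, at -3.23 (SE 1.52, adjusted p = 0.14 by limma). In this comparison, which uses no wt library, 28 of 65 genes were higher and 0 lower in grp fs1 by limma, with 19.4% and 16.3% of all genes. The median log2 difference was 1.28, against 0.05 for all genes. On the lower side, 1 gene had an unadjusted p under 0.05 by limma, edgeR called 0 and DESeq2 called 3. Without grp fs1 replicate 2 the 28 became 14, where 16.1% of all genes were higher, and the other fits without a library gave 20 to 31, with 14.7% to 17.7% of all genes. Without Slbp 10/15 replicate 2, 7 genes were lower in grp fs1, with 12.6% of all genes.

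CG15479 (Mabi) had 255 and 406 normalized counts in grp fs1, against 8.24 and 4.37 in Slbp 10/12 and 70.3 and 10.9 in Slbp 10/15 (log2 difference 4.49, SE 0.68, adjusted p = 0.00302 by limma). CG16815 had 287 and 566 in grp fs1, against 14.6 and 11.4 in Slbp 10/12 and 98.8 and 33.7 in Slbp 10/15 (3.82, SE 0.47, adjusted p = 0.00139 by limma). The wt libraries had 162 and 142 for CG15479 and 233 and 213 for CG16815, so that both grp fs1 libraries of both genes were above wt. CG13716 had 30.8 and 97.0 in grp fs1, against 0.915 and 0.874 in Slbp 10/12 and 6.59 and 13.9 in Slbp 10/15 (3.64, SE 0.57, adjusted p = 0.00351 by limma). Alp10 (CG10592) followed with a log2 difference of 3.58 (SE 0.92, adjusted p = 0.0207 by limma) on the values given above. Of the 28 genes, 13 passed in each of the 6 fits that leave out a library. These were CG13000, CG14014, CG18269, CG30161 and 9 genes of the neighbouring loci on 2L and 3L.

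The neighbouring loci show this pattern gene by gene. On 2L, CG16813 had 68.1 and 124 in grp fs1 embryos, 3.66 and 5.24 in Slbp 10/12 embryos, 19.8 and 15.8 in Slbp 10/15 embryos, against 72.1 and 81.8 in wt. Its neighbours CG15482 and CG15480 did not follow: CG15480 had 22.4 and 61.2 in grp fs1 embryos, 14.6 and 26.2 in Slbp 10/12 embryos, 36.2 and 14.8 in Slbp 10/15 embryos, against 131 and 164 in wt. On 3L, CG15876 had 454 and 776 in grp fs1 embryos, 34.8 and 17.5 in Slbp 10/12 embryos, 152 and 88.1 in Slbp 10/15 embryos, against 558 and 472 in wt. CG13713 had 198 and 331 in grp fs1 embryos, 18.3 and 4.37 in Slbp 10/12 embryos, 91.1 and 81.2 in Slbp 10/15 embryos, against 261 and 195 in wt. CG34266 had 159 and 294 in grp fs1 embryos, 13.7 and 5.24 in Slbp 10/12 embryos, 57.1 and 47.5 in Slbp 10/15 embryos, against 157 and 160 in wt. None of CG16813, CG15876, CG13713 and CG34266 had both grp fs1 libraries below wt. The log2 changes of the 4 genes of the 3L run were -0.50 to 0.44 for grp fs1, -4.48 to -4.06 for Slbp 10/12 and -2.83 to -1.38 for Slbp 10/15. Other runs differed: CG14915 and CG43725 on 2L had -3.77 and -3.87 in grp fs1, and CG42762 and CG43394, in introns of PAPLA1, had -2.81 and -4.28.

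**Figure D5:**
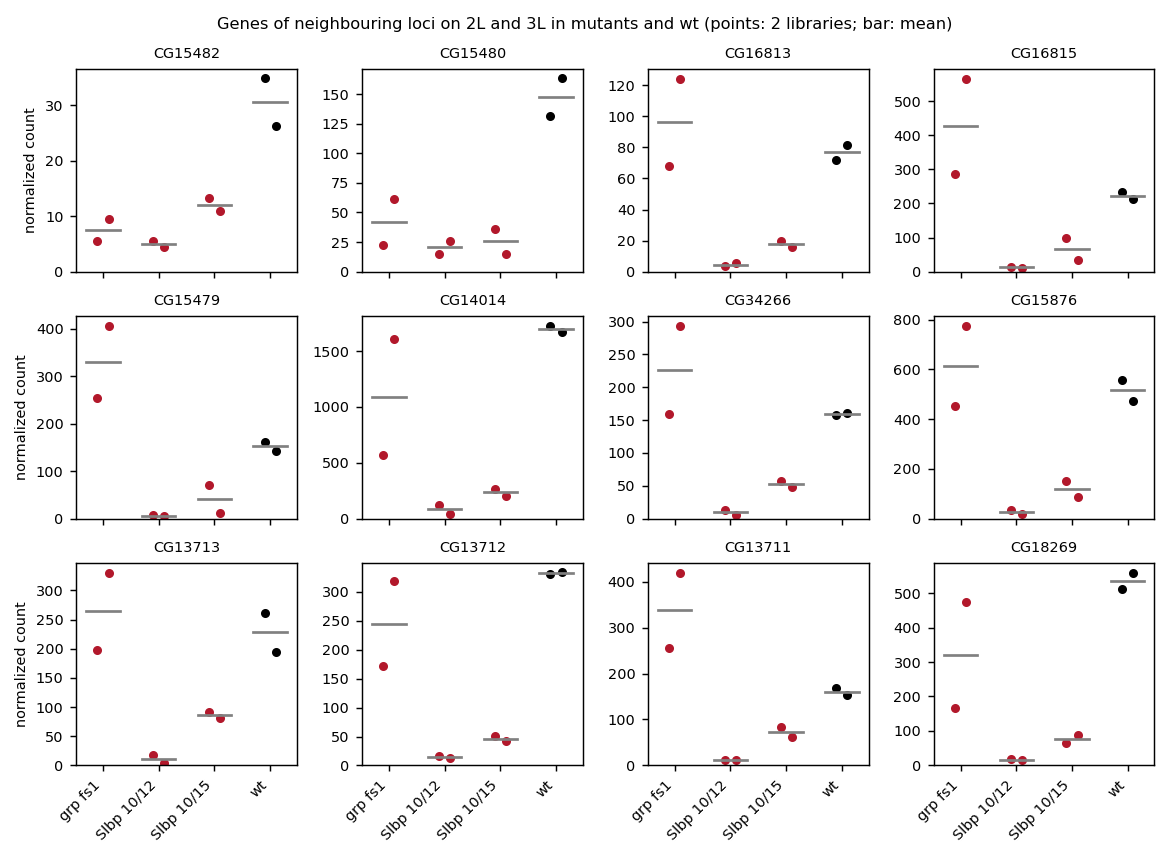
Normalized counts (vertical axes, from 0) of 12 genes of neighbouring loci on 2L and 3L in grp fs1, Slbp 10/12, Slbp 10/15 and wt; points are the 2 libraries of a group and bars their mean. CG15876 has 454 and 776 in grp fs1 against 558 and 472 in wt and 17.5 to 152 in the Slbp libraries. CG15480 passed as lower in all 3 mutants by limma, and CG15482 in grp fs1 and Slbp 10/12 but not in Slbp 10/15.

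Between the Slbp mutants, 0 of 65 genes were higher and 5 were lower in Slbp 10/12 than in Slbp 10/15 by limma, with 1.81% and 1.48% of all genes. On the higher side, 0 genes had an unadjusted p under 0.05 by limma, and edgeR and DESeq2 called 0. CG43659 had 7.32 and 1.75 in Slbp 10/12, against 56.0 and 37.6 in Slbp 10/15 (log2 difference -3.29, SE 0.59, adjusted p = 0.036 by limma). CG13713 had -3.10 (SE 0.59, adjusted p = 0.0405 by limma), CG13711 -2.48 (SE 0.33, adjusted p = 0.0156 by limma) and CG34266 -2.47 (SE 0.49, adjusted p = 0.0469 by limma). CG15876 was the fifth, at -2.18. In these 5 genes no Slbp 10/12 library reached the lower Slbp 10/15 library. None of the 5 passed in every fit that leaves out a library: 2 were left without Slbp 10/12 replicate 1, and 0 without any one of the other 3 libraries.

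The changes in the mutants are given here by extract class, with no test between the classes. Of the 11 genes called nuclear that have a row in the mutant table, 9 passed as lower for grp fs1, 6 for Slbp 10/12 and 10 for Slbp 10/15, with medians of -3.89, -3.49 and -4.26. Of the 50 genes called in neither extract, 18, 45 and 45 were lower, with medians of -1.73, -4.11 and -2.93. Of the 4 genes called cytoplasmic, 1, 4 and 2 were lower, with medians of -0.60, -3.08 and -1.68. The nuclear genes thus had the lowest medians in grp fs1 and Slbp 10/15, and in Slbp 10/12 the genes called in neither extract did. Across the 65 genes, the nuclear minus cytoplasmic difference had a Pearson r of -0.424 with the change in grp fs1, -0.457 with that in Slbp 10/15 and -0.0795 with that in Slbp 10/12 (Spearman rho -0.408, -0.538 and -0.139). The 2 tables share no library, but the genes called nuclear also had higher counts, and the part of count level was not tested.

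As context, 26 landmark genes of early zygotic transcription (bnk, ftz, Kr, sna, zen and others) were listed, of which 25 were tested. In grp fs1, 14 of the 25 were lower and 1 higher, in Slbp 10/12 24 were lower and in Slbp 10/15 23, with medians of -1.90, -3.90 and -2.90. Of the 89 genes with another symbol past the same thresholds that had a row, 56 passed as lower for grp fs1, 65 for Slbp 10/12 and 78 for Slbp 10/15, with medians of -2.90, -3.81 and -3.33. Between extracts, 33 of 90 of these genes passed on the nuclear side and 10 on the cytoplasmic side. Set against the mean of the Slbp mutants, 9 of the 25 landmark genes were higher and 1 lower in grp fs1, with a median of 1.09. Of the 89 genes with another symbol, 19 were higher and 1 lower, with a median of 0.39. Whether the CG genes differ from the landmark genes or from the genes with another symbol was not tested.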

How the data were processed

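Per the study's methods and the submitters' processing notes, reads were aligned with TopHat to the dm3 build and reads per gene were obtained with featureCounts. Signal values in the files the authors deposited are read counts divided by 1 size factor per library (DESeq in the notes), called normalized counts here. They gave whole reads for 100% of values within 0.01 reads after rescaling. The authors also deposited FPKM columns, which were not tested, and a gene length in bases.

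Each table was tested separately with limma 3.58.1 in R 4.3.3 after log2(normalized count + 1), letting the variance follow a trend with level; every group of a table had its own term in 1 fit. Genes needed a mean of at least 5 in 1 group, which left 10335 of 15682 genes in the table of staged embryos and 9868 of 15288 in the mutant table. Tests were two-sided with Benjamini-Hochberg adjustment over all genes and a threshold of 0.05. Falls of at least 4-fold were counted on group means where wt averaged 5 or more. Fold changes on this scale understate the change of low genes. Library depth was 17368684 to 33866670 reads, and floors of 3 reads cover counting error only.

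Alternatives were a pseudocount of 5, other filters, upper quartile scaling, a replicate block, only the groups compared, edgeR 4.0.16 and DESeq2 1.42.0 on the recovered reads, and leaving out each library. The statistics were tested on simulated reads with the same low spread between replicates for every gene, and with changes only in genes of many reads. The simulation does not cover low genes or replicates that differ widely. The members and lists were chosen with earlier results of these data known. Genes named were the 8 with the highest late mean, the 6 with the largest called differences in each direction of a comparison with wt or between extracts, 4 in each direction between mutants, those passing in no mutant, those next to the thresholds and those in tandem. CG4582 and CG43184 were named after their values were seen. Promoters and protein sequences were not analysed here. Gene structure came from Ensembl BDGP6.54, another build than that of the reads, by gene identifier.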

Additional observations from a re-analysis of the deposited data

Results flagged for a closer look

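The grp fs1 and Slbp mutants differed in their effect on 28 of the 65 genes by the limma test of the difference itself. All 28 were higher in grp fs1, where 19.4% of all genes were higher and 16.3% lower. The largest differences, as log2 of grp fs1 over the mean of the Slbp mutants, were 4.49 for CG15479, 3.82 for CG16815, 3.64 for CG13716 and 3.58 for CG10592. The CG10592 value rests on grp fs1 replicate 2, with 315 normalized counts against 24.3 in replicate 1.

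Slbp 10/12 and Slbp 10/15 differed for 5 genes by the same kind of test, all 5 lower in Slbp 10/12. Of all genes, 1.81% were higher and 1.48% lower in Slbp 10/12. The log2 differences were -3.29 for CG43659, -3.10 for CG13713, -2.48 for CG13711 and -2.47 for CG34266.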

How the results depend on the processing

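No called member changed the sign of its difference in any alternative fit. The balance of calls turned in 1 fit: between Slbp 10/12 and Slbp 10/15, 0 higher and 5 lower became 1 higher and 0 lower without Slbp 10/15 replicate 1. Without a filter on low counts, members called on the nuclear side numbered 7 of 66 (10.7% of all genes) and on the cytoplasmic side 0 (13.3%). Those lower in grp fs1 numbered 8 of 65 (12.7%), higher in grp fs1 0 (6.53%) and lower in Slbp 10/15 28 (20.4%). Between mutants, 15 were higher in grp fs1 than in the Slbp mutants (8.87%) and 0 lower in Slbp 10/12 than in Slbp 10/15 (0.386%). The 7 of 66 and the 8 of 65 were thus near the shares of all genes. With at least 5 in every library, 30 members were left to test in the mutant table. Of these, 13 were lower in grp fs1 (14.1% of all genes), 27 in Slbp 10/12 (15.2%) and 29 in Slbp 10/15 (23.2%). In the same fit, 16 were higher in grp fs1 than in the Slbp mutants (25.3%). With upper quartile scaling, 0 were higher in cytoplasmic extracts, 0 higher in grp fs1 and 1 lower in Slbp 10/12 than in Slbp 10/15. Over all genes the shares were 24.6%, 1.77% and 0.311%. With only the groups compared these counts of members were 7, 0 and 2, with 25.5%, 9.24% and 1.65% of all genes. edgeR gave 2 higher in cytoplasmic extracts and 2 lower in Slbp 10/12 than in Slbp 10/15, with 27.8% and 1.16% of all genes. DESeq2 gave 8 and 12, with 29.5% and 4.69% of all genes. It also gave 3 lower in grp fs1 than in the Slbp mutants, with 15.8% of all genes. Apart from the smaller number of members tested, the cause was not tested.

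Leaving out 1 library gave 5 to 15 higher in nuclear and 0 to 1 higher in cytoplasmic extracts. It gave 2 to 28 lower and 0 to 2 higher in grp fs1, 28 to 42 lower in Slbp 10/12 and 12 to 55 lower in Slbp 10/15. Between mutants it gave 14 to 31 higher and 0 to 7 lower in grp fs1 than in the Slbp mutants, and 0 to 1 higher and 0 to 2 lower in Slbp 10/12 than in Slbp 10/15. Such fits leave a group with 1 library, which is assumed to vary like the others. Replicate numbers are not stated to pair libraries. With a replicate block, 16 passed on the nuclear and 3 on the cytoplasmic side, with 25.3% and 26.7% of all genes. In grp fs1 23 were lower and 0 higher (27.9% and 14.2% of all genes). In Slbp 10/12 55 were lower (32.1%), and in Slbp 10/15 54 (38.1%). Between mutants, 27 were higher in grp fs1 than in the Slbp mutants (18.8%) and 1 lower in Slbp 10/12 than in Slbp 10/15 (1.28%). For the 4-fold counts that follow, the shares of all genes are not given here. Of 65 members, the 4-fold counts ran from 24 to 42 in grp fs1, 64 to 65 in Slbp 10/12 and 43 to 58 in Slbp 10/15 over their alternatives, and of the 48 with a wt mean of at least 50 they were 22, 48 and 41.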
